A study of Mus musculus with 23 samples.

Results

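Oxidative phosphorylation genes of the nucleus were followed through cerebellar tumours of mice and the tissue they arise from. The group was defined by symbol, as the genes of the probe annotation that start with Nduf, Uqcr or Atp5, the cytochrome c oxidase genes Cox4 to Cox8, Sdha, Sdhb, Sdhc, Sdhd and Cycs, without pseudogenes. This gave 91 of the 18194 genes measured. They comprise 34 genes of complex I and 8 of its assembly factors, 4 of complex II, 9 of complex III with cytochrome c, 19 of complex IV and 17 of complex V. Each gene was read from 1 probe set, the one with the highest mean over the 23 arrays, and 84 of the 91 passed a filter on dim genes. The other 7 (Ndufb4, Cox4i2, Cox6a2, Cox6b2, Cox7b2, Cox8b and Ndufa4l2) were kept.

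As background, complexes I to IV pass electrons from NADH and succinate to oxygen, I, III and IV pump protons across the inner mitochondrial membrane, and complex V, the ATP synthase, uses the returning protons to make ATP. Most subunits are encoded in the nucleus and a few in mitochondrial DNA, so the complexes are built by dedicated assembly factors. Firing neurons of the adult brain depend on this pathway, whereas dividing granule neuron precursors (GNPs) of the young cerebellum are known for strong glycolysis driven by sonic hedgehog (SHH).

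The arrays came from 6 groups, all labelled as CD1 strain. CRISPR-Ptch1 tumours (n = 3) followed disruption of the hedgehog receptor gene Ptch1 by Cas9 and a guide RNA. For 2 of them the plasmid was given by electroporation in utero (EP) to wild-type embryos, and for 1 by transfection (TF) of the newborn cerebellum. By the study's methods the TF mice lacked Trp53 and were C57BL/6N, unlike the labelled strain. Ptch1+/- tumours (n = 4) arose in mice with 1 germline Ptch1 allele disrupted. MERP tumours (n = 5) followed postnatal Ptch1 deletion in cells that express Math1 (Atoh1), by an inducible Cre in Ptch1 fl/fl mice. GTML tumours (n = 4) overexpress the oncogene Mycn without a Ptch1 lesion. The references were GNPs isolated between postnatal days 4 and 7 (n = 3) and whole adult cerebellum (n = 4). No label says which arrays share an animal, so p-values measure the spread between these samples only.

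Granule precursor markers averaged 10.91 to 11.55 (log2) over the arrays of GNPs and of the 3 Ptch1 models, and 6.90 to 7.53 in GTML and 7.17 to 7.47 in adult cerebellum. Purkinje cell markers averaged 13.26 to 13.38 in adult cerebellum, 8.04 to 10.55 in CRISPR-Ptch1 tumours and 7.37 or less elsewhere. Whether the Ptch1 probe set covers the altered part of the gene was not tested, and it read 11.50 to 13.24 in the Ptch1 models. Mycn read 7.15 to 8.39 in GTML, against 6.57 to 7.13 in adult cerebellum and 11.67 to 12.57 in the other groups. As background, the GTML transgene is a human cDNA, which a mouse probe set need not detect. The control probe sets of Gapdh were 0.81 to 1.34 (log2) brighter at the 3' than at the 5' end in Ptch1+/- tumours, 0.58 to 0.87 in GTML, 0.09 to 1.48 in MERP and -0.08 to 0.23 in the other 3 groups. In bulk tissue, fewer cells of a type and less RNA per cell cannot be told apart.

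Promoter windows of 300 bases, from 250 before to 50 after the transcription start, were held for 75 of the 91 genes (RefSeq, build GRCm38.p6). The windows of 5 genes named below are printed 5' to 3'. They are the 3 genes of the ATP synthase c-ring, which did not change alike, Cox7a1, which had the largest decrease, and Atp5l. The window of Atp5l held the most matches of the 5. Capitals mark matches, on either strand, to NRF1 (CGCATGCG), an ETS or GABP site (CCGGAAG, reverse CTTCCGG), YY1 (AAGATGGCG), an oestrogen-related receptor (ERR) site (TCAAGGTCA, reverse TGACCTTGA) or the TATA box (TATAAA, reverse TTTATA). No YY1 match lay in these 5 windows.
Atp5g1, chr11:96075582-96075881, minus strand: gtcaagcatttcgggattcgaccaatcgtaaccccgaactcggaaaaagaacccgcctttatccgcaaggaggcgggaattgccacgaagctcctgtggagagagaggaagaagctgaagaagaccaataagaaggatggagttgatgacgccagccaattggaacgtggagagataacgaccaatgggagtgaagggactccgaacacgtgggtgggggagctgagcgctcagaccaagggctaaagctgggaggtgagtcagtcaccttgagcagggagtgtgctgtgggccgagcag
Atp5g2, chr15:102670998-102671297, minus strand: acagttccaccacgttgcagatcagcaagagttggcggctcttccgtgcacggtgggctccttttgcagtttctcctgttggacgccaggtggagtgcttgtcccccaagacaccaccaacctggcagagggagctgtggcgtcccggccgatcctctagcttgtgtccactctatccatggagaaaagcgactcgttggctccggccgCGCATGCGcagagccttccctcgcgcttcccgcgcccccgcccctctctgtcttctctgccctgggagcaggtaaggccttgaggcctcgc
Atp5g3, chr2:73911277-73911576, minus strand: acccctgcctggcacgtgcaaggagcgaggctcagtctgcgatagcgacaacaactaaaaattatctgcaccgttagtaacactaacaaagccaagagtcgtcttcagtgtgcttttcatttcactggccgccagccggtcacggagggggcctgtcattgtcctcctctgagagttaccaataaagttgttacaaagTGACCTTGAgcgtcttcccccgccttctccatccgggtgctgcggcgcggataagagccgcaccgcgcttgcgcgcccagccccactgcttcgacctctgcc
Atp5l, chr9:44920693-44920992, minus strand: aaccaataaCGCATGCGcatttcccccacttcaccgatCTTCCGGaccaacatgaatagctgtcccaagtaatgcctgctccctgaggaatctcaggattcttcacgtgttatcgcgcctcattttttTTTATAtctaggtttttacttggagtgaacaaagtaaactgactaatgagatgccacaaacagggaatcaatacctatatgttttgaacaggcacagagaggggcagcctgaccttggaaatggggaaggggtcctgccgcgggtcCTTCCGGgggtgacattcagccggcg
Cox7a1, chr7:30183921-30184220, plus strand: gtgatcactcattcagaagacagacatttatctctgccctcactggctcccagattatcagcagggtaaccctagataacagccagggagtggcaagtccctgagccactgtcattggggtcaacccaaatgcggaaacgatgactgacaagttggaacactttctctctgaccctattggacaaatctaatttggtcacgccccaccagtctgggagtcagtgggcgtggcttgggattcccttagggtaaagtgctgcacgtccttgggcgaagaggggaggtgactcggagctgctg

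The window of Atp5g2 held 1 NRF1 match at position -41 from the start and that of Atp5g3 1 ERR match at -52. The window of Atp5l held an NRF1 match at -241, ETS matches at -212 and 25 and a TATA match at -122. No match was found in those of Atp5g1 and Cox7a1. Over the 80 windows of the 75 genes, NRF1 letters stood in 13.8%, against 1.87% of all 32851 windows. ETS letters stood in 23.8% against 8.86%, YY1 letters in 8.75% against 1.4% and ERR letters in 2.5% against 0.423%, whereas TATAAA was found in 11.2% against 13.6%. No match overlapped another in the printed windows, and a match is a description of the sequence only.

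The 91 genes were highest in adult cerebellum. The group mean was highest there for 67 of them (73.6%, against 25.1% of all genes), and in 45 (49.5%, against 14.3% of all genes) each of the 4 adult arrays lay above all 19 others. Relative to the adult mean, the median gene of the group lay at -0.38, -0.37 and -0.36 (log2) in the GNP arrays and at -0.42, -0.35 and -0.44 in the CRISPR-Ptch1 tumours. It lay at -0.36, -0.54, -0.71, -0.30 and -0.53 in MERP, at -0.36, -0.36, -0.43 and -0.22 in GTML and at -0.73, -0.85, -1.03 and -1.11 in Ptch1+/- tumours. None of these 19 arrays overlapped the adult arrays, which lay between -0.04 and 0.03, and the Ptch1+/- tumours lay below all others. Over all 18194 genes, the median array difference from the adult mean stayed between -0.07 and 0.16.

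**Figure D1:**
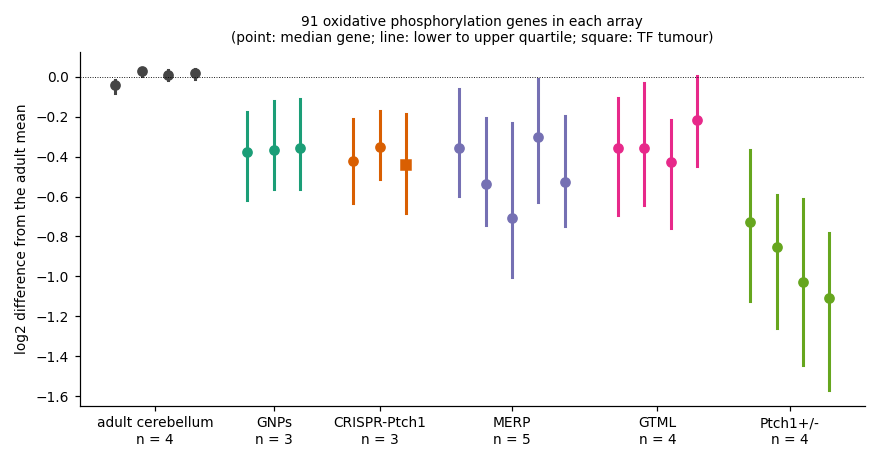
Log2 difference of the 91 oxidative phosphorylation genes from their mean in adult cerebellum (y axis) in each of the 23 arrays, by group (x axis). Points are the median gene and lines run from the lower to the upper quartile. The medians of the 19 arrays outside adult cerebellum lie between -0.22 and -1.11, with the 4 Ptch1+/- tumours lowest.

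In limma's test with Benjamini-Hochberg adjustment over all genes (a gene is called at an adjusted p under 0.05), GNPs had 49 of the 91 genes lower and 3 higher than adult cerebellum (background over all genes 21% lower, 29.1% higher, 50.1% in either direction). CRISPR-Ptch1 tumours had 49 lower and 3 higher (background 21.1% lower, 26.4% higher, 47.5% in all). MERP tumours had 62 lower and 7 higher (background 24.9%, 30.8% and 55.7%), and GTML tumours 51 and 11 (background 27.9%, 27.3% and 55.3%). Ptch1+/- tumours had 80 lower and 1 higher (background 30.8%, 22.4% and 53.2%). The median log2 difference of the group was -0.36, -0.39, -0.49, -0.34 and -0.92 in that order, against 0.03, 0.02, 0.08, 0.04 and -0.03 over all genes, and it stayed below 0 under each of the 3 scaling alternatives. One of them, centring each array on the median of the gene table, takes out differences of 0.23, 0.17, -0.03, -0.20 and -0.31 between the gene table medians of these groups and adult cerebellum, in the same order. Relative to them, the group median was -0.59, -0.56, -0.46, -0.13 and -0.61, and GTML tumours had 30 genes lower and 14 higher. Centring shifts all genes of an array alike, and the shares over all genes with centred arrays are not given here or below. In 36 genes the decrease was called in all 5 comparisons, which share the adult arrays, and 14 genes were called higher in at least 1. The share of all genes with either pattern is not given, so both counts are descriptions only. The 36 genes were 14 of complex I and 1 of its assembly factors, 1 of complex II, 4 of complex III, 9 of complex IV and 7 of complex V. They include Ndufb4 and Cox7b2, which are below the filter on dim genes. Another bright probe set had the opposite sign for Ndufa12 in GNPs, CRISPR-Ptch1 and MERP, for Atp5a1 in these and GTML, and for Cox6c in MERP. Cox8c alone of the 91 was called in none of the 5. The adult arrays are also set apart by mature neurons: Purkinje markers averaged 7.37 or less in GNPs, MERP, GTML and Ptch1+/- arrays, and the part of cell composition in these decreases was not tested.

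**Figure D2:**
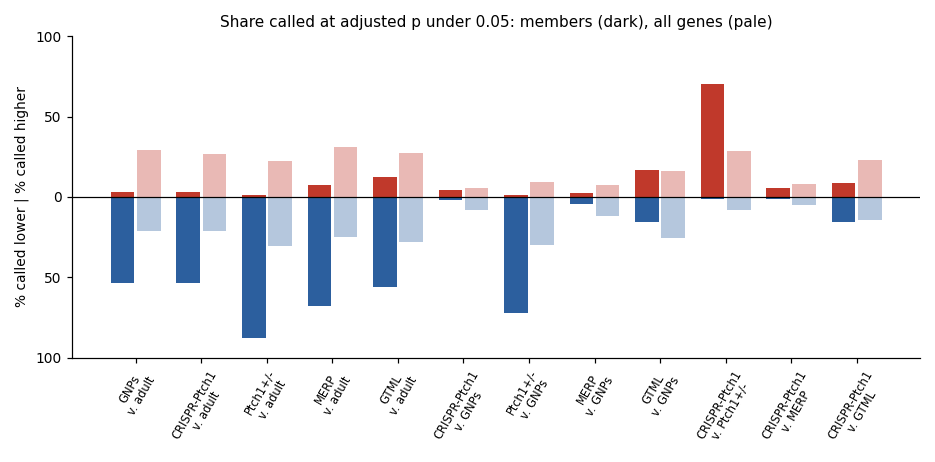
Percentage of genes called higher (upward bars, red) or lower (downward bars, blue) in each of the 12 comparisons, at an adjusted p under 0.05, for the 91 genes (dark) and all 18194 genes (pale). Against adult cerebellum 49 to 80 of the 91 genes were lower; the bars against GNPs and between tumours are long for Ptch1+/- tumours, whose length depends on the scaling of the arrays.

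Complex I is the entry point for electrons from NADH, and most of its genes were lower than in adult cerebellum. Of 34 genes, 21 were lower than adult in GNPs, 21 in CRISPR-Ptch1, 26 in MERP, 19 in GTML and 33 in Ptch1+/- tumours. Over all genes, 21%, 21.1%, 24.9%, 27.9% and 30.8% were lower, in the same order. Among the core subunits, Ndufv1, which binds NADH and the flavin, differed from adult by -0.57 in GNPs, -0.67 in CRISPR-Ptch1, -0.62 in MERP, -0.42 in GTML and -1.08 in Ptch1+/- tumours, and each difference was called (adjusted p 0.0056 or less). Ndufs7, an iron-sulphur subunit near the quinone site, differed by -0.80 in GNPs, -0.76 in CRISPR-Ptch1, -0.60 in MERP, -0.50 in GTML and -1.08 in Ptch1+/- tumours, each called as well. Ndufs3, of the same arm, differed by -0.67 in GNPs, -0.57 in CRISPR-Ptch1, -0.67 in MERP, -0.73 in GTML and -1.49 in Ptch1+/- tumours, again all called. Ndufs8 was called in GTML and Ptch1+/- only (-0.44 and -1.20), with -0.11, -0.31 and -0.26 in GNPs, CRISPR-Ptch1 and MERP. Ndufv2 was called in MERP, GTML and Ptch1+/- tumours (-0.35, -0.50 and -1.10) and measured -0.27 and -0.29 in GNPs and CRISPR-Ptch1 tumours. Another bright probe set of Ndufv2 had the opposite sign in MERP and GTML.

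Ndufs1 and Ndufv3 were near their adult levels in the GTML tumours and lower in the other groups. Ndufs1 is the largest iron-sulphur subunit of the arm that takes up electrons. The Ndufs1 values were 11.41, 11.39, 11.37 and 11.37 in the adult cerebella and 10.36, 10.47 and 10.54 in the GNPs. They were 10.47, 10.59 and 10.42 in the CRISPR-Ptch1 tumours, 10.18, 10.49, 10.36, 10.10 and 10.34 in MERP, 10.997, 11.40, 11.17 and 11.78 in GTML and 10.11, 9.90, 9.90 and 9.82 in Ptch1+/- tumours. The GTML arrays spanned the adult arrays, and all other arrays lay below both. The difference from adult was -0.05 in GTML (SE 0.13, adjusted p = 0.78), whereas it was -0.93 in GNPs, -0.89 in CRISPR-Ptch1, -1.09 in MERP and -1.45 in Ptch1+/- tumours, all called. Ndufv3, an accessory subunit beside the flavin, read 12.66, 12.69, 12.71 and 12.74 in adult cerebella and 12.65, 12.53, 12.61 and 12.48 in GTML tumours. It read 11.71, 11.77 and 11.77 in GNPs, 11.09, 11.66 and 11.38 in CRISPR-Ptch1, 11.47, 11.30, 11.13, 11.44 and 11.33 in MERP and 10.94, 10.96, 10.88 and 10.91 in Ptch1+/- tumours. GTML lay just under the adult arrays (-0.13, SE 0.10, adjusted p = 0.275), and the other 4 groups differed by -0.95, -1.33, -1.37 and -1.78. Between tumours, CRISPR-Ptch1 was below GTML, with differences of -0.85 (SE 0.14, adjusted p = 5.43e-05) for Ndufs1 and -1.19 (SE 0.11, adjusted p = 2.83e-08) for Ndufv3.

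Ndufs5, an accessory subunit of the membrane arm, had the largest decrease of complex I in GNPs, MERP and GTML, and Ndufv3 in CRISPR-Ptch1 and Ptch1+/- tumours. The Ndufs5 values were 12.09, 12.17, 12.13 and 12.18 in the adult cerebella and 9.98, 10.27 and 10.11 in the GNPs. They were 11.25, 11.46 and 11.34 in the CRISPR-Ptch1 tumours, 10.40, 11.16, 10.58, 11.02 and 9.89 in MERP, 10.28, 10.12, 9.76 and 10.12 in GTML and 10.57, 10.75, 10.61 and 10.28 in Ptch1+/- tumours. Values of 9.76 to 10.28 were shared by the GNPs, the GTML tumours, MERP tumour 5 and Ptch1+/- tumour 4, and the CRISPR-Ptch1 tumours were highest after adult cerebellum. The differences from adult were -2.02 in GNPs, -0.79 in CRISPR-Ptch1, -1.53 in MERP, -2.07 in GTML and -1.59 in Ptch1+/- tumours, each called. In the other direction, Ndufb1, also of the membrane arm, was higher than adult in GTML (0.97, SE 0.14, adjusted p = 4.13e-06) and in GNPs (0.42, SE 0.15, adjusted p = 0.0244, arrays overlapping) and lower in Ptch1+/- tumours (-0.85, SE 0.14, adjusted p = 2.36e-05).

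The 8 assembly factors of complex I, which are not part of the finished complex, were mixed in direction. In GTML 3 were higher and 3 lower than adult, in GNPs and MERP 1 was higher and 4 lower, in CRISPR-Ptch1 1 was lower and in Ptch1+/- tumours 5 were lower. Over all genes, 27.3% were higher and 27.9% lower in GTML, so a mixed direction there is not particular to this set. In the other comparisons 22.4% to 30.8% of all genes were higher and 21% to 30.8% lower. Ndufaf4, which acts early in building the matrix arm, read 10.98, 11.43, 10.68 and 10.90 in GTML and 10.03, 10.21, 9.92 and 9.998 in adult cerebella, without overlap, and was higher by 0.96 (SE 0.16, adjusted p = 2.10e-05). Ndufaf6 was higher in GTML by 1.10 (SE 0.19, adjusted p = 3.95e-05). Ndufaf1, a factor for the membrane arm, read 9.60, 9.65, 9.67 and 9.65 in adult cerebella, 9.43, 9.32 and 9.65 in CRISPR-Ptch1 tumours, 7.71, 8.30, 7.37 and 7.99 in GTML and 8.68, 7.75, 7.64 and 7.23 in Ptch1+/- tumours. It read 8.72, 9.03 and 8.77 in GNPs and 9.22, 7.88, 8.28, 8.70 and 9.50 in MERP tumours. It was lower in GNPs, MERP, GTML and Ptch1+/-, with differences of -0.80, -0.93, -1.80 and -1.82, and in CRISPR-Ptch1 it measured -0.18 (SE 0.32, adjusted p = 0.697). Ndufaf3, the partner of Ndufaf4, was lower in all 5 comparisons, with differences of -0.54 in GNPs, -0.54 in CRISPR-Ptch1, -0.90 in MERP, -1.39 in GTML and -1.97 in Ptch1+/- tumours. Ndufaf2, which helps to finish the complex, was higher in GNPs (0.52, SE 0.17, adjusted p = 0.0138) and MERP (0.40, SE 0.15, adjusted p = 0.0278). Of the others, named for completeness after their values were seen, Ndufaf5 was lower in all but CRISPR-Ptch1, with -0.60, -0.68, -0.74 and -1.67 in GNPs, MERP, GTML and Ptch1+/-. Ndufaf7 was lower in GNPs, MERP and Ptch1+/- (-0.67, -0.42 and -0.76), and Ndufaf8 was higher in GTML (0.40) and lower in Ptch1+/- (-0.65). The largest increase against adult in this set was that of Ndufaf6 in GTML and the largest decrease that of Ndufaf3 in Ptch1+/- tumours.

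**Figure D3:**
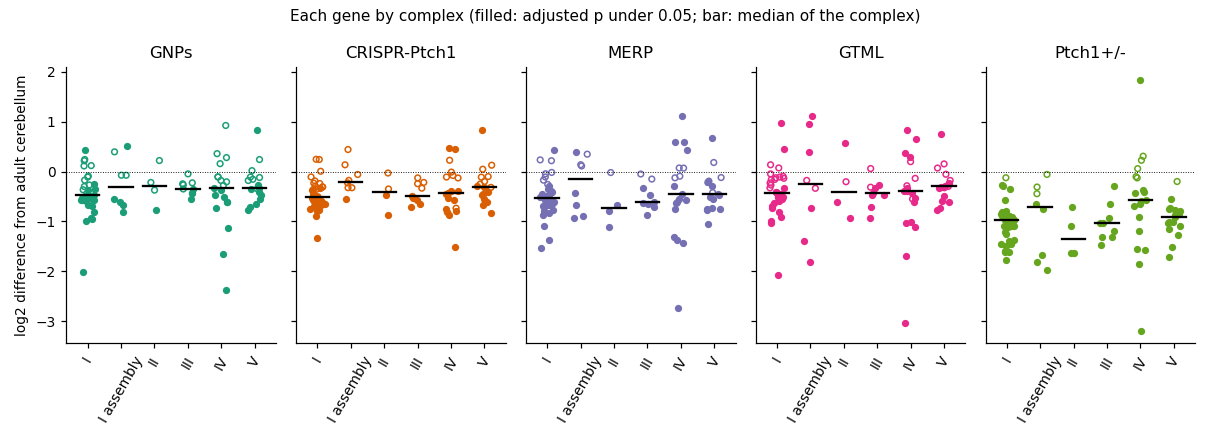
Log2 difference from adult cerebellum (y axis) of each of the 91 genes by complex (x axis), in 1 panel per group. Filled points passed an adjusted p of 0.05 and bars are medians. All medians lie below 0, and single genes of complex IV reach -3.19 and 1.83 in the Ptch1+/- panel.

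Complex II links the chain to the tricarboxylic acid cycle. Its flavoprotein gene Sdha was lower than adult in each group, with differences of -0.77 in GNPs, -0.88 in CRISPR-Ptch1, -1.11 in MERP, -0.93 in GTML and -1.63 in Ptch1+/- tumours, all called. For Sdhb, the iron-sulphur subunit, the values were 12.05, 12.11, 12.16 and 12.18 in adult cerebella, 11.88, 11.92 and 11.92 in GNPs, 11.92, 12.17, 11.63 and 11.96 in GTML and 11.73, 11.85 and 11.74 in CRISPR-Ptch1 tumours. They were 11.82, 11.32, 10.97, 11.57 and 11.55 in MERP and 10.62, 10.84, 10.34 and 10.18 in Ptch1+/- tumours. Sdhb was called lower only in MERP and Ptch1+/- (-0.68 and -1.63) and measured -0.22, -0.35 and -0.20 in GNPs, CRISPR-Ptch1 and GTML. Of the membrane anchors, Sdhd was lower, with differences of -0.37 in GNPs, -0.48 in CRISPR-Ptch1, -0.78 in MERP, -0.60 in GTML and -1.09 in Ptch1+/- tumours, called in all but the GNPs, but a dimmer probe set of Sdhd had the opposite sign in MERP and Ptch1+/-. Sdhc was higher in GTML (0.57, SE 0.22, adjusted p = 0.0319), lower in Ptch1+/- tumours (-0.71, SE 0.22, adjusted p = 0.00879) and called in no other comparison with adult.

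Complex III passes electrons from ubiquinol to cytochrome c, and 4, 5, 7, 7 and 9 of its 9 genes were lower than adult in GNPs, CRISPR-Ptch1, MERP, GTML and Ptch1+/- tumours. None was higher. The core gene Uqcrc1 read 12.41, 12.48, 12.54 and 12.55 in adult cerebella and 11.995, 11.93 and 11.87 in GNPs. In tumours it read 11.86, 12.02 and 11.89 (CRISPR-Ptch1), 11.94, 11.68, 11.15, 11.82 and 11.55 (MERP), 11.54, 11.45, 11.64 and 11.62 (GTML) and 11.38, 11.22, 10.70 and 10.78 (Ptch1+/-). All these arrays lay below the adult arrays, and the differences were -0.56 in GNPs, -0.57 in CRISPR-Ptch1, -0.86 in MERP, -0.93 in GTML and -1.47 in Ptch1+/- tumours. Uqcrc2, the other core gene, was lower as well, with differences of -0.44 in GNPs, -0.53 in CRISPR-Ptch1, -0.71 in MERP, -0.34 in GTML and -1.03 in Ptch1+/- tumours. The Rieske protein gene Uqcrfs1 was called in every tumour group (-0.48, -0.61, -0.71 and -1.19 in CRISPR-Ptch1, MERP, GTML and Ptch1+/-) and measured -0.27 in GNPs. Uqcrh, the hinge subunit, was called in GTML and Ptch1+/- (-0.27 and -0.64). Cycs, the carrier cytochrome c that also starts apoptosis in the cytosol, measured -0.05 in GNPs, -0.22 in CRISPR-Ptch1, -0.05 in MERP, 0.06 in GTML and -0.29 in Ptch1+/- tumours, called in the last only (SE 0.12, adjusted p = 0.0454), where it turned to 0.016 with arrays centred on the gene table. The other probe sets of Cycs read higher in adult cerebellum than in each other group.

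Complex IV reduces oxygen, and several of its subunits exist as a form found in most tissues and a form that is restricted to muscle, lung or testis. Of 19 genes, 10, 11, 11, 11 and 13 were lower than adult in GNPs, CRISPR-Ptch1, MERP, GTML and Ptch1+/- tumours. The share of all genes that were lower was 21% to 30.8%. Of the general forms, Cox4i1, Cox6a1, Cox6b1 and Cox8a were lower in all 5 comparisons. The differences of Cox4i1 were -0.48 in GNPs, -0.54 in CRISPR-Ptch1, -0.57 in MERP, -0.39 in GTML and -0.69 in Ptch1+/- tumours. Those of Cox6a1 were -0.38 in GNPs, -0.39 in CRISPR-Ptch1, -0.54 in MERP, -0.54 in GTML and -0.41 in Ptch1+/- tumours, and those of Cox6b1 were -0.33 in GNPs, -0.43 in CRISPR-Ptch1, -0.45 in MERP, -0.33 in GTML and -0.59 in Ptch1+/- tumours. For Cox8a they were -1.13 in GNPs, -0.86 in CRISPR-Ptch1, -1.32 in MERP, -1.02 in GTML and -1.56 in Ptch1+/- tumours, and all of these were called. Cox5b and Cox6c (whose more variable probe set was near 0 in MERP) were also lower in all 5 comparisons, with differences of -0.42 to -1.19 and of -0.45 to -0.92. Cox5a was lower in each tumour group, with differences of -0.30 to -0.66, and measured -0.21 in GNPs. Cox7a2 was called in Ptch1+/- only (-0.42), with -0.11 to -0.14 in the other groups. Ndufa4, now assigned to this complex, was lower, with differences of -0.62 in GNPs, -0.56 in CRISPR-Ptch1, -0.63 in MERP, -1.01 in GTML and -0.58 in Ptch1+/- tumours, each called.

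Cox7a1, the heart and skeletal muscle form of subunit VIIa, had the largest decrease from adult cerebellum among the 91 genes in all 5 comparisons. The Cox7a1 values were 8.23, 7.97, 7.97 and 8.16 in the adult cerebella and 5.72, 5.75 and 5.69 in the GNPs. They were 6.35, 7.14 and 6.22 in the CRISPR-Ptch1 tumours, 5.38, 5.50, 5.59, 5.13 and 5.14 in MERP, 4.79, 5.08, 4.73 and 5.61 in GTML and 4.62, 4.75, 5.47 and 4.73 in Ptch1+/- tumours. No array outside adult cerebellum reached the adult range, and CRISPR-Ptch1 tumours were highest among the rest. The differences were -2.36 (SE 0.23, adjusted p = 1.39e-08) in GNPs, -1.51 (SE 0.23, adjusted p = 9.12e-06) in CRISPR-Ptch1 and -2.74 (SE 0.20, adjusted p = 1.18e-10) in MERP tumours. They were -3.03 (SE 0.21, adjusted p = 6.40e-11) in GTML and -3.19 (SE 0.21, adjusted p = 2.73e-11) in Ptch1+/- tumours. Several of these values are close to the lower quartile of the arrays (4.40 to 4.61), where true falls are understated. A set of 5 skeletal muscle markers averaged 5.20 to 5.31 in adult cerebellum and 4.86 to 6.08 elsewhere. The restricted form Cox7b2 was called lower in all 5 groups, but its probe set was dim throughout (5.29 to 5.80 in adult cerebella and 3.39 to 5.42 elsewhere, around and below the lower quartile), so the sizes of its differences are not given here. The restricted form Cox6b2, also below the filter on dim genes, differed by -0.78, -1.37, -1.12 and -1.55 in the 4 tumour groups, against -0.28 in GNPs, not called.

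Other genes of complex IV were higher than in adult cerebellum. Cox7a2l, which joins complexes III and IV into supercomplexes, read 11.60, 11.64, 11.54 and 11.66 in adult cerebella and was higher in CRISPR-Ptch1 (0.47, SE 0.15, adjusted p = 0.0117), MERP (0.59, SE 0.13, adjusted p = 0.000564) and GTML (0.66, SE 0.14, adjusted p = 0.000313). In GNPs and Ptch1+/- tumours it measured 0.36 and -0.13. Cox6a2, the muscle form of subunit VIa and below the filter on dim genes, was higher in MERP and GTML by 0.60 and 0.83. Cox4i2, the lung form, was higher by 0.46, 0.43 and 0.37 in CRISPR-Ptch1, MERP and GTML, with array values of 4.67 to 5.69 in all groups, near the lower quartile. Cox8b was lower in GNPs and Ptch1+/- (-0.72 and -0.38) and Ndufa4l2, which hypoxia induces, was higher in GTML (0.28), both below the filter on dim genes. Cox8c was called in no comparison with adult cerebellum. Cox7c had a pattern of its own, with 8.09, 8.14, 8.26 and 8.31 in adult cerebella and 9.79, 8.76 and 8.81 in GNPs. It read 7.57, 7.54 and 7.28 in CRISPR-Ptch1 and 7.07, 7.55, 7.98 and 8.01 in GTML, below every adult array though not called, and 8.19, 9.92, 9.13, 9.43 and 9.93 in MERP and 8.67, 10.48, 10.41 and 10.57 in Ptch1+/- tumours. It was higher than adult in MERP (1.12, SE 0.36, adjusted p = 0.0119) and Ptch1+/- tumours (1.83, SE 0.38, adjusted p = 0.000314), and in GNPs it measured 0.92 (SE 0.41, adjusted p = 0.0703). MERP tumour 1 lay within the adult range. The other probe set of Cox7c was likewise high in GNPs, MERP and Ptch1+/- and low in the other 3 groups. The probe set used is marked for possible cross-hybridisation and had a mean of 8.69, against 13.02 for Cox6c and 13.41 for Cox7a2. Whether it reads the main transcript of Cox7c was not tested.

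Complex V makes ATP. Of its 17 genes, 9, 9, 11, 9 and 16 were lower than adult in GNPs, CRISPR-Ptch1, MERP, GTML and Ptch1+/- tumours. The share of all genes that were lower was 21% to 30.8%. The catalytic beta subunit gene Atp5b read 13.94, 13.96, 13.96 and 13.87 in adult cerebella, 13.13, 13.19 and 13.19 in GNPs and 13.21, 13.30 and 13.30 in CRISPR-Ptch1 tumours. It read 13.13, 12.90, 12.48, 12.99 and 12.95 in MERP, 13.11, 13.24, 13.23 and 13.27 in GTML and 12.80, 12.50, 12.31 and 12.11 in Ptch1+/- tumours. The adult arrays were apart from all others, and the differences were -0.76 in GNPs, -0.66 in CRISPR-Ptch1, -1.05 in MERP, -0.72 in GTML and -1.50 in Ptch1+/- tumours. Atp5a1, for the alpha subunit, was lower, with differences of -0.64 in GNPs, -0.47 in CRISPR-Ptch1, -0.76 in MERP, -0.30 in GTML and -1.03 in Ptch1+/- tumours, but of its other probe sets 1 of lower signal read above adult in GNPs, CRISPR-Ptch1, MERP and GTML. Atp5c1, for the gamma subunit, was called in MERP and Ptch1+/- (-0.51 and -1.15), and Atp5o, of the stalk, in Ptch1+/- only (-1.28). The Atp5l values were 12.89, 12.92, 12.90 and 12.94 in the adult cerebella and 12.57, 12.47 and 12.50 in the GNPs. They were 12.27, 12.39 and 12.45 in the CRISPR-Ptch1 tumours, 12.72, 12.36, 12.32, 12.61 and 12.33 in MERP, 12.14, 12.06, 12.05 and 12.29 in GTML and 12.01, 12.01, 11.86 and 11.72 in Ptch1+/- tumours. Atp5l, the membrane subunit g, was named after its values were seen, for its window printed above. It was lower than adult in every array, with differences of -0.40 in GNPs, -0.55 in CRISPR-Ptch1, -0.44 in MERP, -0.78 in GTML and -1.01 in Ptch1+/- tumours, all called.

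The 3 c-ring genes Atp5g1, Atp5g2 and Atp5g3, whose windows are printed above, encode the same mature subunit with different targeting peptides. They differed in direction. The Atp5g2 values were 11.34, 11.43, 11.42 and 11.47 in the adult cerebella and 12.22, 12.28 and 12.24 in the GNPs. They were 12.32, 12.22 and 12.17 in the CRISPR-Ptch1 tumours, 12.24, 12.05, 11.78, 12.22 and 12.09 in MERP, 12.22, 12.03, 12.02 and 12.42 in GTML and 11.65, 11.29, 11.14 and 10.77 in Ptch1+/- tumours. Every array of GNPs, CRISPR-Ptch1, MERP and GTML lay above the adult arrays, and the Ptch1+/- arrays lay on both sides of them. Atp5g2 was higher by 0.83 (SE 0.15, adjusted p = 8.10e-05) in GNPs, 0.82 (SE 0.15, adjusted p = 0.000108) in CRISPR-Ptch1, 0.66 (SE 0.13, adjusted p = 0.000202) in MERP and 0.76 (SE 0.14, adjusted p = 8.39e-05) in GTML, and measured -0.20 (SE 0.14, adjusted p = 0.258) in Ptch1+/- tumours. The Atp5g3 values were 13.72, 13.72, 13.81 and 13.75 in the adult cerebella and 13.44, 13.38 and 13.41 in the GNPs. They were 13.06, 13.26 and 13.13 in the CRISPR-Ptch1 tumours, 13.12, 12.98, 12.84, 13.07 and 13.05 in MERP, 13.45, 13.44, 13.33 and 13.48 in GTML and 12.82, 13.01, 12.85 and 12.86 in Ptch1+/- tumours. Each of these arrays was below the adult range, and the differences were -0.34 in GNPs, -0.60 in CRISPR-Ptch1, -0.74 in MERP, -0.33 in GTML and -0.86 in Ptch1+/- tumours, all called. Atp5g1 read 12.06, 12.16, 12.14 and 12.14 in adult cerebella, 11.51, 11.60 and 11.63 in GNPs and 11.66, 11.73 and 11.77 in CRISPR-Ptch1, below adult in each. It read 11.67, 11.38, 10.85, 11.56 and 11.42 in MERP, 11.75, 11.86, 11.60 and 11.98 in GTML and 10.64, 10.68, 10.34 and 9.99 in Ptch1+/- tumours. Its differences were -0.54 in GNPs, -0.40 in CRISPR-Ptch1, -0.75 in MERP, -0.32 in GTML and -1.71 in Ptch1+/- tumours, called in GNPs, CRISPR-Ptch1 (SE 0.16, adjusted p = 0.0499), MERP and Ptch1+/- tumours.

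**Figure D4:**
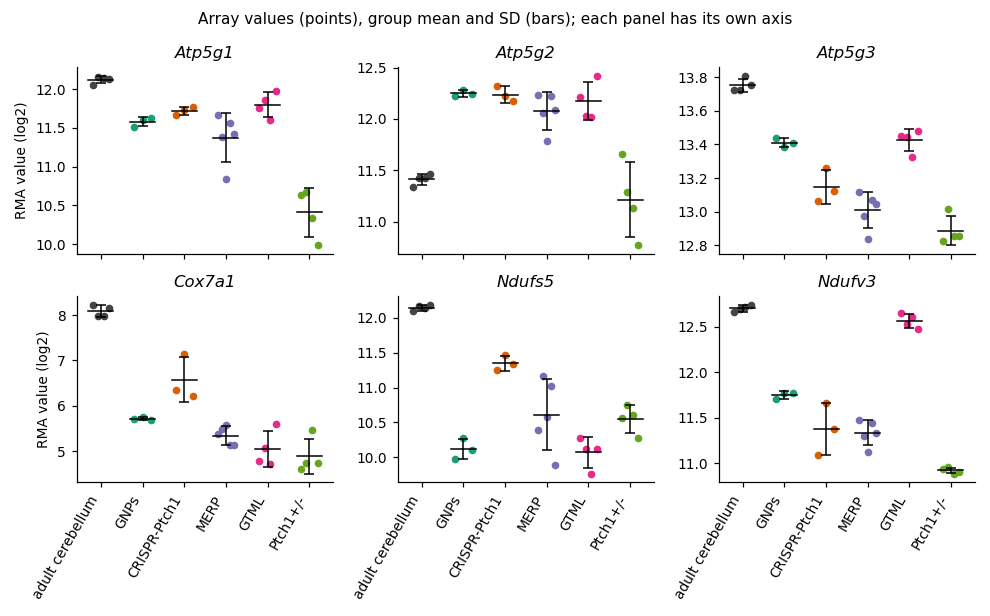
RMA values (log2, y axis) of 6 genes in each array by group (x axis), with the group mean and SD. Atp5g2 is higher than adult in every array of GNPs, CRISPR-Ptch1, MERP and GTML while Atp5g1 and Atp5g3 are lower, and Ndufv3 lies nearest to adult in GTML.

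Against GNPs, the proliferating tissue, few of the 91 genes differed in 2 of the 4 models. CRISPR-Ptch1 tumours had 4 genes higher and 2 lower of 91 (background 5.79% higher, 7.95% lower, 13.7% in all). They were Ndufs5 (1.23, SE 0.22, adjusted p = 0.000482), Cox7a1 (0.85, SE 0.24, adjusted p = 0.0202), Cox7b2 (dim as above, adjusted p = 0.0271) and Cox8b (dim as above, 0.59, SE 0.17, adjusted p = 0.0253), all higher, and Cox7c (-1.66, SE 0.44, adjusted p = 0.0136) and Ndufv3 (-0.37, SE 0.12, adjusted p = 0.0344), both lower. In CRISPR-Ptch1 tumours, the EP tumour with the highest Cox7a1 value, 7.14, also had the highest averages of mature granule neuron markers (11.38) and Purkinje markers (10.55), and their part in this difference was not tested. Without GNP array 1 limma called 1 gene higher and 0 lower, and without the EP tumour just named 1 higher and 4 lower. MERP tumours had 2 genes higher and 4 lower (background 7.12% higher, 12.1% lower, 19.2% in all): Cox6a2 (0.70) and Cox8b (0.63) were higher, and Cox6b2 (-1.09), Sdhb (-0.46), Ndufv3 (-0.41) and Atp5g3 (-0.40) lower. Of these, Cox6a2, Cox8b and Cox6b2 are below the filter on dim genes. The median of the group was -0.02 in CRISPR-Ptch1 and -0.09 in MERP, and both signs turn (0.05 and 0.17) when arrays are centred on the median of the gene table, which left 4 genes higher and 1 lower in CRISPR-Ptch1 and 15 higher and 1 lower in MERP tumours.

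GTML tumours had 15 genes higher and 14 lower than GNPs (background 16.1% higher, 25.7% lower, 41.8% in all), with a group median of 0.02. Ndufaf4 (1.03, SE 0.17, adjusted p = 4.84e-05), Cox6a2 (dim as above, 0.93, SE 0.19, adjusted p = 0.000489), Ndufs1 (0.88, SE 0.14, adjusted p = 2.50e-05) and Ndufv3 (0.82, SE 0.11, adjusted p = 3.44e-06) were higher. Cox7c (-1.47, SE 0.41, adjusted p = 0.00666), Ndufaf1 (-0.997, SE 0.32, adjusted p = 0.016) and Ndufaf2 (-0.86, SE 0.17, adjusted p = 0.000334) were lower. Of the 8 assembly factors, 4 were higher and 3 lower than in GNPs. The balance of higher and lower genes depends on the scaling, since centring on the gene table gave 58 higher and 3 lower. The median of the gene table was 7.15 in GTML and 7.58 in GNPs. Centring therefore moves all genes upward in GTML relative to GNPs, and their share is not given.

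Ptch1+/- tumours had 66 genes lower and 1 higher than GNPs (background 29.9% lower, 9.4% higher, 39.3% in all), with a group median of -0.58. All 17 genes of complex V and all 4 of complex II were lower, and 9 of 19 in complex IV. The largest decreases were those of Ndufaf3 (-1.43, SE 0.19, adjusted p = 6.20e-06), Sdhb (-1.41, SE 0.17, adjusted p = 1.14e-06) and Atp5o (-1.29, SE 0.23, adjusted p = 0.000123), and Cox8c was higher (0.40, SE 0.15, adjusted p = 0.0374). The mean of 75 of the 91 genes (82.4%, against 24.7% of all genes) was lowest in Ptch1+/- of all 6 groups. These differences depend on the scaling of the arrays, and the Gapdh gap was 0.81 to 1.34 in these tumours against 0.03 to 0.23 in GNPs. The median of the gene table was 7.04 on average in Ptch1+/- tumours and 7.58 in GNPs, a shift of -0.54. With arrays centred on it, 21 genes were lower and 15 higher, and the group median was -0.03. With the Gapdh gap of each array as a covariate, 30 genes were lower and 0 higher.

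Within the Ptch1+/- tumours, the array with the smallest Gapdh gap had the least negative group median, and the other 3 followed in order: gaps of 0.81, 0.94, 1.03 and 1.34 (log2) went with medians of -0.73, -0.85, -1.03 and -1.11. The gene table medians of these arrays fell in the same order, at 7.22, 7.05, 6.96 and 6.94. MERP tumour 3, with a gap of 1.48, had the lowest value of its group for 58 of the 91 genes. The order did not hold across MERP, where gaps of 0.09, 0.13, 0.64 and 0.66 in the other 4 tumours went with medians of -0.53, -0.36, -0.30 and -0.54. GTML tumours, with gaps of 0.58 to 0.87, had medians of -0.22 to -0.43. The part of RNA quality in the low values of Ptch1+/- tumours was not tested.

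**Figure D5:**
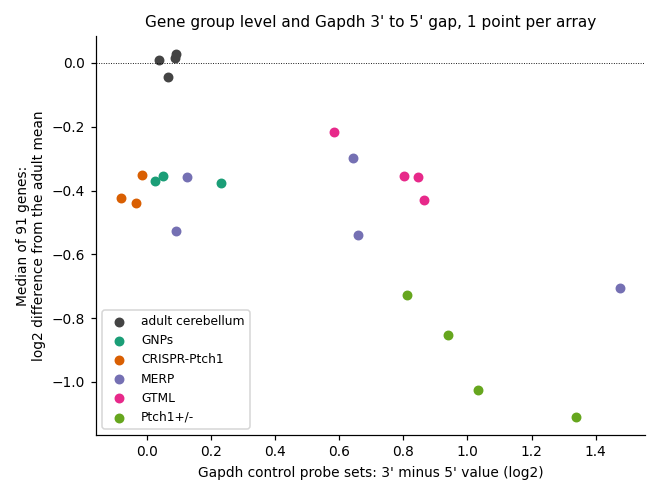
Median log2 difference of the 91 genes from the adult mean (y axis) against the 3' minus 5' value of the Gapdh control probe sets (x axis, log2), 1 point per array, coloured by group. The 4 Ptch1+/- tumours lie lowest, between -0.73 and -1.11, at gaps of 0.81 to 1.34, and MERP tumour 3 lies at -0.71 and 1.48.

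Between tumours, CRISPR-Ptch1 exceeded Ptch1+/- in 64 of the 91 genes and was lower in 1 (background 28.5% higher, 8.33% lower, 36.8% in all). All 17 genes of complex V and all 4 of complex II were higher, with a group median of 0.57. A dimmer probe set of Sdhd had the opposite sign here as well. The Gapdh gap was -0.08 to -0.02 in the CRISPR-Ptch1 tumours. The largest differences were those of Cox7a1 (1.68, SE 0.23, adjusted p = 1.39e-05), Ndufaf1 (1.64, SE 0.32, adjusted p = 0.00042) and Ndufaf3 (1.43, SE 0.19, adjusted p = 1.54e-05), and Cox7c was lower (-2.57, SE 0.41, adjusted p = 7.16e-05). Purkinje markers averaged 9.18 in CRISPR-Ptch1 tumours, against 5.14 in Ptch1+/-, 5.57 in MERP and 6.21 in GTML. Mature granule neuron markers averaged 10.07 against 8.32, 8.11 and 7.92. The part of cell composition in these differences, and in those from MERP and GTML below, was not tested. The c-ring genes Atp5g1 and Atp5g2 were higher by 1.31 and 1.02. Centred on the gene table, whose median differed by 0.48 between these groups, 22 genes were higher and 13 lower, and with the Gapdh gap as a covariate 13 were higher and 1 lower.

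CRISPR-Ptch1 and MERP tumours, which both lose Ptch1 in the cerebellum, differed in 6 genes (5 higher, 1 lower, background 8.2% higher, 5.15% lower, 13.3% in all). Cox7a1 (1.22, SE 0.22, adjusted p = 0.00111), Ndufs5 (0.74, SE 0.20, adjusted p = 0.0178), Cox6b2 (dim as above, 0.59, SE 0.19, adjusted p = 0.0468), Cox8a (0.46, SE 0.14, adjusted p = 0.0315) and Atp5a1 (0.29, SE 0.08, adjusted p = 0.0139) were higher and Cox7c lower (-1.85, SE 0.40, adjusted p = 0.00417). Without CRISPR-Ptch1 tumour 2, the EP tumour named above, limma called 1 gene higher and 1 lower, and with the TF tumour alone limma called 0. The Atp5a1 difference turned to -0.10 with its most variable probe set. The group median was 0.04 and turned to -0.16 with arrays centred on the gene table, where 1 gene was higher and 6 lower. Against GTML, 8 genes were higher in CRISPR-Ptch1 and 14 lower (background 22.7% higher, 14.1% lower, 36.8% in all). Besides Ndufs1 and Ndufv3, the lower genes were led by Ndufaf4 (-1.19, SE 0.17, adjusted p = 1.33e-05). Ndufaf1 (1.62, SE 0.32, adjusted p = 0.00041), Cox7a1 (1.52, SE 0.23, adjusted p = 1.92e-05) and Ndufs5 (1.28, SE 0.21, adjusted p = 5.26e-05) were the largest increases. Centring on the gene table gave 4 higher and 50 lower genes. The gene table median differed by 0.37 between these groups, and centring moves all genes by it.

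Other genes of mitochondrial energy metabolism did not all move with the 91. Of 21 measured genes of the tricarboxylic acid cycle and its pyruvate supply, 16 were lower than adult and 2 higher in GNPs, in CRISPR-Ptch1 and in MERP, 12 lower and 2 higher in GTML and 19 lower and 2 higher in Ptch1+/- tumours. Of 12 carriers and channels of the mitochondrial membranes, 7, 6, 8, 7 and 10 were lower in GNPs, CRISPR-Ptch1, MERP, GTML and Ptch1+/- and at most 1 was higher. Genes of the mitochondrial ribosome, which translates the subunits encoded in mitochondrial DNA, were more often higher in 4 of the groups: of 71, 33 were higher and 4 lower than adult in GNPs, 34 and 5 in CRISPR-Ptch1, 38 and 7 in MERP and 38 and 9 in GTML. In Ptch1+/- tumours 8 were higher and 39 lower. With arrays centred on the gene table, the split was 11 higher and 10 lower in GNPs, 21 and 10 in CRISPR-Ptch1, 42 and 6 in MERP, 48 and 6 in GTML and 15 and 24 in Ptch1+/- tumours. Of 40 further assembly factors of the 5 complexes, 6 to 10 were higher and 6 to 12 lower in the first 4 groups, and 1 and 27 in Ptch1+/- tumours. The shares over all genes given above are the background for the counts without centring. They are not the background of the split with centred arrays.

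Of 20 regulators of mitochondrial genes, 10, 12, 11, 12 and 8 were higher and 6, 5, 6, 5 and 9 lower than adult in GNPs, CRISPR-Ptch1, MERP, GTML and Ptch1+/- tumours. Over all genes, 22.4% to 30.8% were higher and 21% to 30.8% lower. Those named here were chosen after their values were seen, as factors of the motifs above or as the PGC-1 coactivators. Ppargc1a, the coactivator known as a driver of mitochondrial biogenesis, was lower, with differences of -3.28 in GNPs, -2.99 in CRISPR-Ptch1, -4.69 in MERP, -3.94 in GTML and -4.67 in Ptch1+/- tumours, all called. Its relative Ppargc1b was lower too, with differences of -4.67 in GNPs, -3.88 in CRISPR-Ptch1, -5.27 in MERP, -2.01 in GTML and -5.28 in Ptch1+/- tumours, whereas the third member, Pprc1, was higher by 1.09 in GNPs, 1.73 in CRISPR-Ptch1, 1.66 in MERP, 2.40 in GTML and 1.36 in Ptch1+/- tumours, all called. Esrra, a receptor that binds the ERR motif, was lower, with differences of -1.36 in GNPs, -1.01 in CRISPR-Ptch1, -0.95 in MERP, -1.54 in GTML and -1.15 in Ptch1+/- tumours, all called. Esrrg, of the same receptor family, was lower in GNPs, CRISPR-Ptch1, MERP and Ptch1+/- and measured -0.11 in GTML, where it was not called; the other differences were -1.85, -3.90, -5.31 and -5.92. Yy1 was higher by 1.23 in GNPs, 1.41 in CRISPR-Ptch1, 1.57 in MERP, 1.27 in GTML and 1.17 in Ptch1+/- tumours, and Gabpa, a factor for ETS motifs, by 0.89 in GNPs, 1.24 in CRISPR-Ptch1, 0.82 in MERP, 0.80 in GTML and 0.71 in Ptch1+/- tumours, all called. Nrf1 was higher by 1.10 in GNPs, 1.25 in CRISPR-Ptch1, 1.298 in MERP, 0.75 in GTML and 0.86 in Ptch1+/- tumours, all called, but its more variable probe set gave the opposite sign in GNPs and CRISPR-Ptch1 tumours.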

How the data were processed

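The authors measured RNA on Affymetrix whole-genome mouse arrays and deposited log2 values of 45101 probe sets, background-corrected, quantile-normalised and summarised by RMA in Affymetrix Expression Console 1.3.1, per the submitters' processing notes. RNA was purified with a column kit for DNA and RNA. Probe sets with 1 gene symbol in the platform annotation were kept, and per gene the one with the highest mean over the 23 arrays, which gave 18194 genes. The 91 genes used 20 probe sets whose identifiers mark possible cross-hybridisation.

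One limma 3.58.1 model (R 4.3.3, lmFit and eBayes) of the 6 groups gave 12 comparisons, each with Benjamini-Hochberg adjustment over all genes and a threshold of 0.05. Array medians were 6.00 to 6.17. The number of arrays limits the precision. The test was checked on simulated data. Genes were named by a rule: core subunits, isoforms, complex I assembly factors and the 3 largest called changes in each direction. Members and lists were chosen with earlier results of these data known. Alternatives covered scaling, probe set choice, dim genes, array weights, eBayes settings, groups fitted, EP or TF tumours alone, the replicate block, each array left out and, chosen after seeing the data, the 3' to 5' gaps as covariates.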

Additional observations from a re-analysis of the deposited data

Results flagged for a closer look

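In the 216 combinations of a named gene and a group of 4 or 5 arrays that were tested for an array standing apart from its group (Dixon's criterion), 9 had one, and chance gives about 1 in 20. Cox7c read 8.67 in Ptch1+/- tumour 1 against 10.41 to 10.57 in the other Ptch1+/- tumours. Cox7a1 read 5.47 in Ptch1+/- tumour 3 against 4.62 to 4.75 in the others. In MERP, Cox6b2 read 5.33 in tumour 1 against 5.73 to 5.88, Cox8a 11.45 in tumour 3 against 11.89 to 12.04 and Cox8c 8.13 in tumour 4 against 7.57 to 7.69. Cox8c read 7.69 in GTML tumour 4 against 7.89 to 7.92. In adult cerebellum, Atp5o read 12.6 in array 1 against 12.75 to 12.78 and Cox6a1 14.61 in array 4 against 14.56 to 14.57, and Ndufaf8 10.07 in array 1 against 10.2 to 10.21.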

How the results depend on the processing

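Counts here are of the 91 genes called in either direction. The shares over all genes under the changed settings are not given, so the counts describe the 91 genes only. Against adult cerebellum they were 52 (GNPs), 52 (CRISPR-Ptch1), 81 (Ptch1+/-), 69 (MERP) and 62 (GTML), and they moved by over 1.5 times only to 80 in GNPs with array weights and to 40 in GTML with the Gapdh gap as a covariate. With arrays centred on the gene table, the counts against GNPs were 36 (Ptch1+/-), 16 (MERP) and 61 (GTML), and those of CRISPR-Ptch1 were 35 against Ptch1+/- and 54 against GTML. Array weights gave 32 (CRISPR-Ptch1) and 23 (MERP) against GNPs, and for CRISPR-Ptch1 27 against MERP and 35 against GTML. The Gapdh covariate gave 30 for Ptch1+/- against GNPs, and for CRISPR-Ptch1 14 against Ptch1+/- and 3 against MERP. The actin covariate gave 19 for GTML against GNPs, 28 for CRISPR-Ptch1 against Ptch1+/- and 1 against MERP. Without dim genes MERP against GNPs had 3. The TF tumour alone, assumed to vary like the other groups, gave 3 against GNPs, 43 against Ptch1+/-, 0 against MERP and 12 against GTML. With only the 2 groups fitted, CRISPR-Ptch1 had 2 against MERP and 12 against GTML.

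Leaving out 1 array gave 1 to 5 for CRISPR-Ptch1 against GNPs (1 without GNP array 1, 2 without GNP array 3, 3 without CRISPR-Ptch1 tumour 1), 19 to 28 for GTML against GNPs (19 without GNP array 1) and 2 to 9 for CRISPR-Ptch1 against MERP (2 without CRISPR-Ptch1 tumour 2); all other counts stayed within 1.5 times. The replicate numbers did not pair the arrays (median correlation of deviations -0.004 for the same number, over 0.1 in 6 of 46 pairs). With the replicate block CRISPR-Ptch1 against MERP had 3, and no other count moved by over 1.5 times. With the most variable probe set of each gene, differences turned to 0.21 (GNPs), 0.40 (CRISPR-Ptch1), 0.50 (MERP) and 0.47 (GTML) for Atp5a1 against adult and -0.10 for CRISPR-Ptch1 against MERP, to 0.067 for Cox6c in MERP and to -0.64 (GNPs) and -0.16 (CRISPR-Ptch1) for Nrf1. Cycs in Ptch1+/- turned to 0.016 with arrays centred on the gene table, and Cox6b2 in CRISPR-Ptch1 against MERP to -0.026 with the TF tumour alone. For named genes, only values called in the main fit were followed, so values that became called under another setting are not counted. Of these, 3430 of the other values kept their direction and side of the threshold when a setting was changed. Another 210 kept their direction but were no longer called. With 1 array left out these numbers were 1982 and 130. The cause of these changes was not tested.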
